A study of Mus musculus with 24 samples.

Results

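The effect of BAM15 in old mice was read from 11 RNA libraries of inguinal white adipose tissue, the fat depot under the skin of the groin. The 5 libraries of BAM15-treated mice aged 92 weeks (Aged BAM15) were set against the 6 libraries of control mice of that age (Aged CTRL), gene by gene over all 15939 genes with enough counts. They belong to a set of 24 libraries, which also holds 7 control (Young CTRL) and 6 BAM15 (Young BAM15) mice aged 16 weeks. All 4 groups were wild-type C57BL/6J mice, and the title of the series describes them as fed a high-fat diet, so the controls carried that diet too. The dose, route and length of treatment are not in the labels, nor is the sex of the mice. The depots were frozen at necropsy, and the QuantSeq kit then read the 3' ends of their transcripts. The titles number the mice within each group, and p values measure the spread between these numbered mice.

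BAM15 is a small molecule that carries protons across the inner mitochondrial membrane, so that nutrients are oxidised without making ATP; it belongs to the uncouplers, which raise energy use. In obese fat, macrophages gather around dying adipocytes and take up their lipid. These lipid-associated macrophages enlarge their lysosomes and express the receptor Trem2, the integrin subunit Itgax (CD11c), galectin-3 and matrix-degrading proteases, and the depot lays down more collagen. Adipocytes meanwhile secrete hormones such as leptin and the complement protease adipsin.

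The 11 libraries held 9.34 to 21.2 M counts. The libraries Aged CTRL 2, Aged BAM15 2 and Aged BAM15 5 stood apart from the rest: the mitochondrial ribosomal transcript mt-Rnr2 made up 0.201, 0.166 and 0.257% of their counts, against 0.722 to 1.77% in the other 8. Transcripts of the mitochondrial genome took 14.6, 21.4 and 16.9% of their counts and 4.82 to 7.95% elsewhere. The same 3 libraries lay apart on the first principal component of the 11 (45.2% of the variance). Because 2 of 5 BAM15 libraries and 1 of 6 controls are of this kind, results are also given from a reduced fit, which leaves out these 3 and Young CTRL 4, the other library of the 24 with low mt-Rnr2. Adipocyte markers were abundant in all 11 libraries. They summed to 48573 to 83614 CPM (counts of a gene per M counts of the library) in Aged CTRL and 45542 to 104593 CPM in Aged BAM15.

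Across the whole transcriptome, the genes with the smallest p that lay lower in Aged BAM15 included the macrophage elastase gene Mmp12, the macrophage sugar phosphate exchanger gene Slc37a2, the leukocyte metalloprotease gene Adam8, the lysosomal protease gene Lgmn and the growth factor gene Hbegf. Those that lay higher included the vessel growth factor Angpt1, the anticoagulant receptor Thbd, the antioxidant enzyme Gpx3, the adipsin gene Cfd and the clock output gene Hlf. None of them was called by the main test. With edgeR's quasi-likelihood test, 0 of 15939 genes had a Benjamini-Hochberg adjusted p under 0.05 (0% called), and the smallest adjusted p was 0.105. At an unadjusted p under 0.05 stood 1450 genes, or 9.1%, of which 732 were lower (4.59%) and 718 higher (4.5%). DESeq2 called 105 genes (0.662%), 68 lower (0.429%) and 37 higher (0.233%). The limma-voom fit with quality weights called 966 (6.06%), 549 lower (3.44%) and 417 higher (2.62%). Only 46 genes (0.289%) had every BAM15 library below every control, and 67 (0.42%) had every one above. The median log2 change of all genes was 0.02.

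One library moved the count of calls most. Without Aged BAM15 1, edgeR called 67 genes, 14 of them higher, and without Aged CTRL 2 it called 17, 11 of them higher. Without Aged CTRL 5 it called 1, Adam33, and without each of the other 8 aged libraries it called 0. The reduced fit gave 0 calls with edgeR, with 1861 genes at an unadjusted p under 0.05, and the same 20 libraries gave 130 calls with DESeq2 and 1059 with limma-voom. Among the 8 aged libraries with usual mt-Rnr2, 1214 genes did not overlap between the groups. These are 5 Aged CTRL and 3 Aged BAM15 libraries. Fewer libraries make separation easier, so this count is not comparable with that from all aged libraries.

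**Figure D1:**
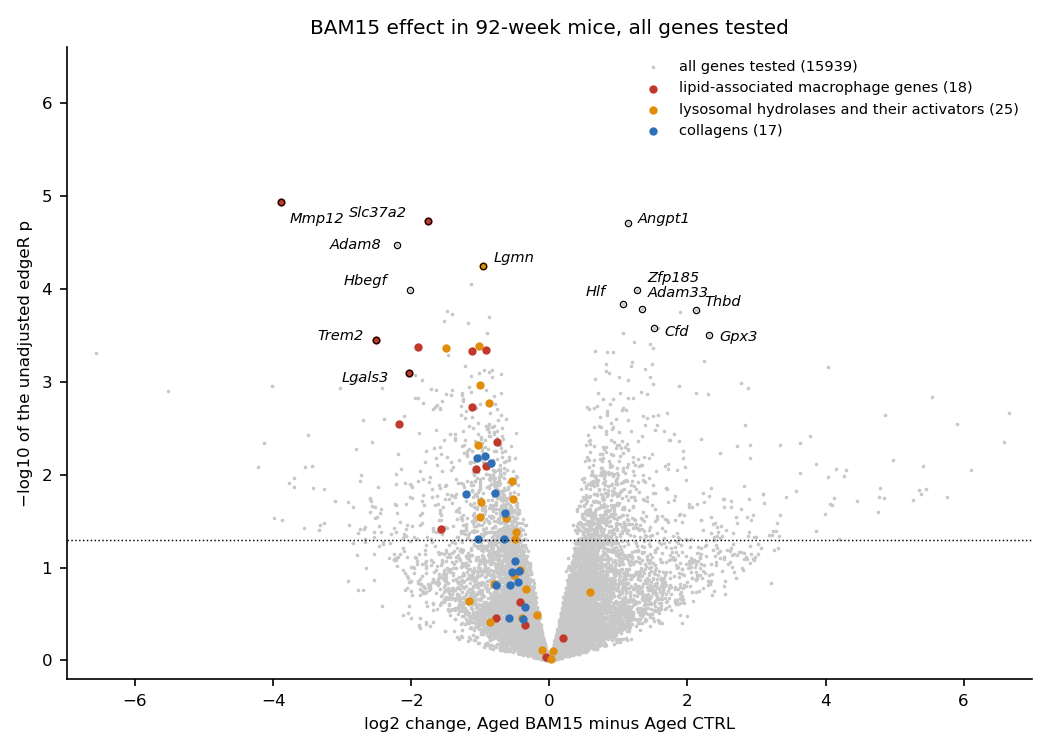
Log2 change in 92-week mice (Aged BAM15 minus Aged CTRL, horizontal) against the negative log10 of the unadjusted edgeR p (vertical) for the 15939 genes tested, with 3 gene lists in colour and a dotted line at the unadjusted threshold. The 17 collagens all lie left of 0, as do 17 of the 18 lipid-associated macrophage genes, and no gene passes the adjusted threshold.

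Of the genes with the smallest p, 11 that lay lower and 12 that lay higher are described. DESeq2 and limma-voom called each of these 23, which were picked by their p in the same libraries. EdgeR called none of them in the fit of all libraries or in the reduced fit. Each kept its direction in every alternative run.

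Mmp12 encodes the elastase of macrophages, which cuts elastin. It lay at 13.7, 0.688, 2.38, 2.23 and 1.79 CPM in Aged BAM15 1 to 5 and at 24.1 to 99.7 CPM (median 63.2) in Aged CTRL. The groups did not overlap, and Aged BAM15 1 was nearest to the controls. The fitted levels were 14.8-fold apart, a log2 change of -3.89 ± 0.71 SE (edgeR adjusted p = 0.105) and of -3.45 in the reduced fit.

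Slc37a2, a sugar phosphate exchanger of the endoplasmic reticulum that macrophages express, lay at 5.38, 5.37, 3.21, 4.47 and 3.98 CPM in Aged BAM15. Aged CTRL held 10.2 to 20.9 CPM (median 14.8), so these groups did not overlap either. This was a log2 change of -1.75 ± 0.33 (edgeR adjusted p = 0.105). Mmp12 and Slc37a2 were the only members of the lipid-associated macrophage list with no overlap over the 11 libraries.

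Trem2 is a lipid-sensing receptor that marks this macrophage state, and it signals through Tyrobp. Aged BAM15 held Trem2 at 10.8, 1.86, 3.09, 2.62 and 3.00 CPM and Aged CTRL at 9.23 to 44.6 CPM (median 24.6). Aged BAM15 1 alone lay within the control range, and the other 4 lay below it. EdgeR gave a log2 change of -2.51 ± 0.61 (edgeR adjusted p = 0.226).

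Itgax showed the same arrangement, with Aged BAM15 1 at 17.8 CPM and the other 4 BAM15 libraries at 1.45, 5.42, 9.03 and 3.23 CPM. The controls ran from 16.9 to 38.1 CPM (median 27.0). The log2 change was -1.90 ± 0.47 (edgeR adjusted p = 0.226).

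The galectin-3 gene Lgals3 lay at 323, 35.0, 181, 101 and 56.3 CPM in Aged BAM15. In Aged CTRL it lay at 83.5 to 931 CPM (median 622), where the lowest value was that of Aged CTRL 2, the control with low mt-Rnr2. It had a log2 change of -2.04 ± 0.53 (edgeR adjusted p = 0.25), and of -1.73 in the reduced fit.

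The list of lipid-associated macrophage genes held 18 genes, all of them tested. At an unadjusted p under 0.05 lay 13 lower and 0 higher, where all genes gave 4.59% lower and 4.5% higher. The median log2 change was -1.09, and -1.24 in the reduced fit, against 0.02 over all genes. DESeq2 called 8 of the 18 and limma-voom 14, each of them lower, where they called 0.429% and 3.44% of all genes lower. Bulk RNA cannot tell fewer cells of a type from less RNA in each cell.

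Members of this list for uptake and breakdown of lipid and protein also lay lower. The lysosomal protease gene Ctsl had a log2 change of -1.12 ± 0.28, the lysosomal acid lipase gene Lipa -0.76 ± 0.24, the acid phosphatase gene Acp5 -0.91 ± 0.22 and the proton pump subunit gene Atp6v0d2 -2.18 ± 0.66. The lipid droplet coat gene Plin2 had -0.91 ± 0.32, the membrane glycoprotein gene Gpnmb -1.07 ± 0.37, and the Trem2 adaptor gene Tyrobp -1.12 ± 0.32. Fabp5, a fatty acid carrier, had -1.57 ± 0.72, and its 3 lowest libraries were those with low mt-Rnr2 (8.64 CPM in Aged CTRL 2, 5.78 in Aged BAM15 2 and 3.86 in Aged BAM15 5, against at least 40.5 in the others). In each of these 8 genes the unadjusted p was under 0.05 and the edgeR adjusted p lay above it.

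The remaining 5 members did not pass even the unadjusted threshold. The most abundant was Apoe, which exports cholesterol from cells and is made by adipocytes too, averaging 2387 ± 1127 CPM over the 6 controls (SD) and 2731 ± 1538 CPM over the 5 BAM15 libraries (SD). Its log2 change of 0.19 ± 0.35 had a 95% interval of -0.48 to 0.87. Ctsb, a lysosomal protease, had -0.43 ± 0.35, the tetraspanins Cd63 and Cd9 -0.35 ± 0.42 and -0.05 ± 0.40, and osteopontin (Spp1) -0.77 ± 0.80 at 2.42 CPM or less on average. Cd9 was highest in Aged CTRL 2, at 209 CPM against 38.2 to 57.8 in the other controls, and its sign turned in the reduced fit (0.18).

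**Figure D2:**
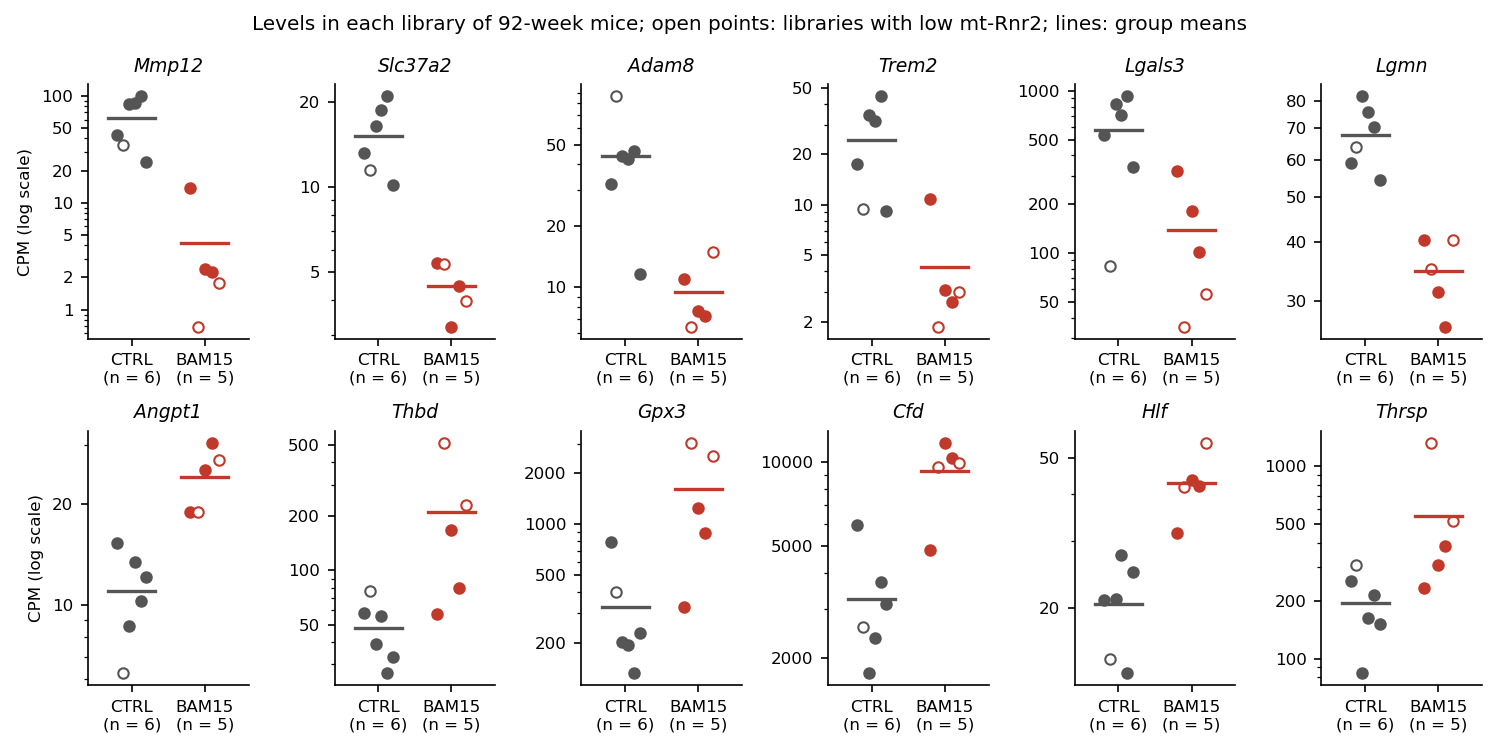
Level of 12 genes in CPM on a log scale in each of the 6 Aged CTRL (grey) and 5 Aged BAM15 (red) libraries, with group means as lines and libraries with low mt-Rnr2 as open points. For Mmp12, Slc37a2, Lgmn, Angpt1 and Hlf the groups do not overlap, while for Trem2 and Cfd Aged BAM15 1 lies among the controls.

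Macrophage markers were next read in lists of their own. Of 18 general macrophage markers, 8 lay lower at an unadjusted p under 0.05 and 0 higher. All genes gave 4.59% lower and 4.5% higher at that threshold. The median log2 change of the list was -0.58 (-0.64 in the reduced fit). DESeq2 called 1 and limma-voom 7, each lower, where they called 0.429% and 3.44% of all genes lower. Cd68, a protein of macrophage lysosomes, lay at 62.6, 13.2, 43.1, 30.4 and 22.7 CPM in Aged BAM15 and at 37.5 to 137 CPM (median 75.5) in Aged CTRL, a log2 change of -1.17 ± 0.36. The Fc receptor chain gene Fcer1g had -0.89 ± 0.27. As a mean of log2 CPM over the list, the 6 controls lay at 5.40 to 6.12 and the 5 BAM15 libraries at 5.00 to 5.39. The groups only just failed to overlap, with Aged CTRL 6 at 5.40 and Aged BAM15 1 at 5.39.

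The lipid-associated list was set against the general list within each library. Its mean log2 CPM was 6.06 to 7.44 in Aged CTRL and 5.03 to 6.16 in Aged BAM15. The difference between both lists within a library, the lipid-associated minus the general mean, was 0.28 in Aged CTRL 2 and 1.00 to 1.32 in the other controls. In Aged BAM15 1 to 5 it was 0.77, -0.24, 0.21, 0.51 and 0.20. Among the libraries with usual mt-Rnr2, every BAM15 library thus lay below every control, and Aged CTRL 2 lay within the BAM15 range.

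Markers of resident macrophages lay near 0 in the middle of their list. Of 13, 1 had an unadjusted p under 0.05, the folate receptor gene Folr2 (log2 change -1.06 ± 0.36), and the median was -0.01. The scavenger receptor gene Mrc1 and Cd163, named after their values were seen, had log2 changes of -0.01 ± 0.37 and 0.21 ± 0.41. The lectin gene Mgl2 had -0.80 ± 0.40. The median was -0.32 in the reduced fit and 0.42 without Aged CTRL 2, so it has no stable sign.

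**Figure D3:**
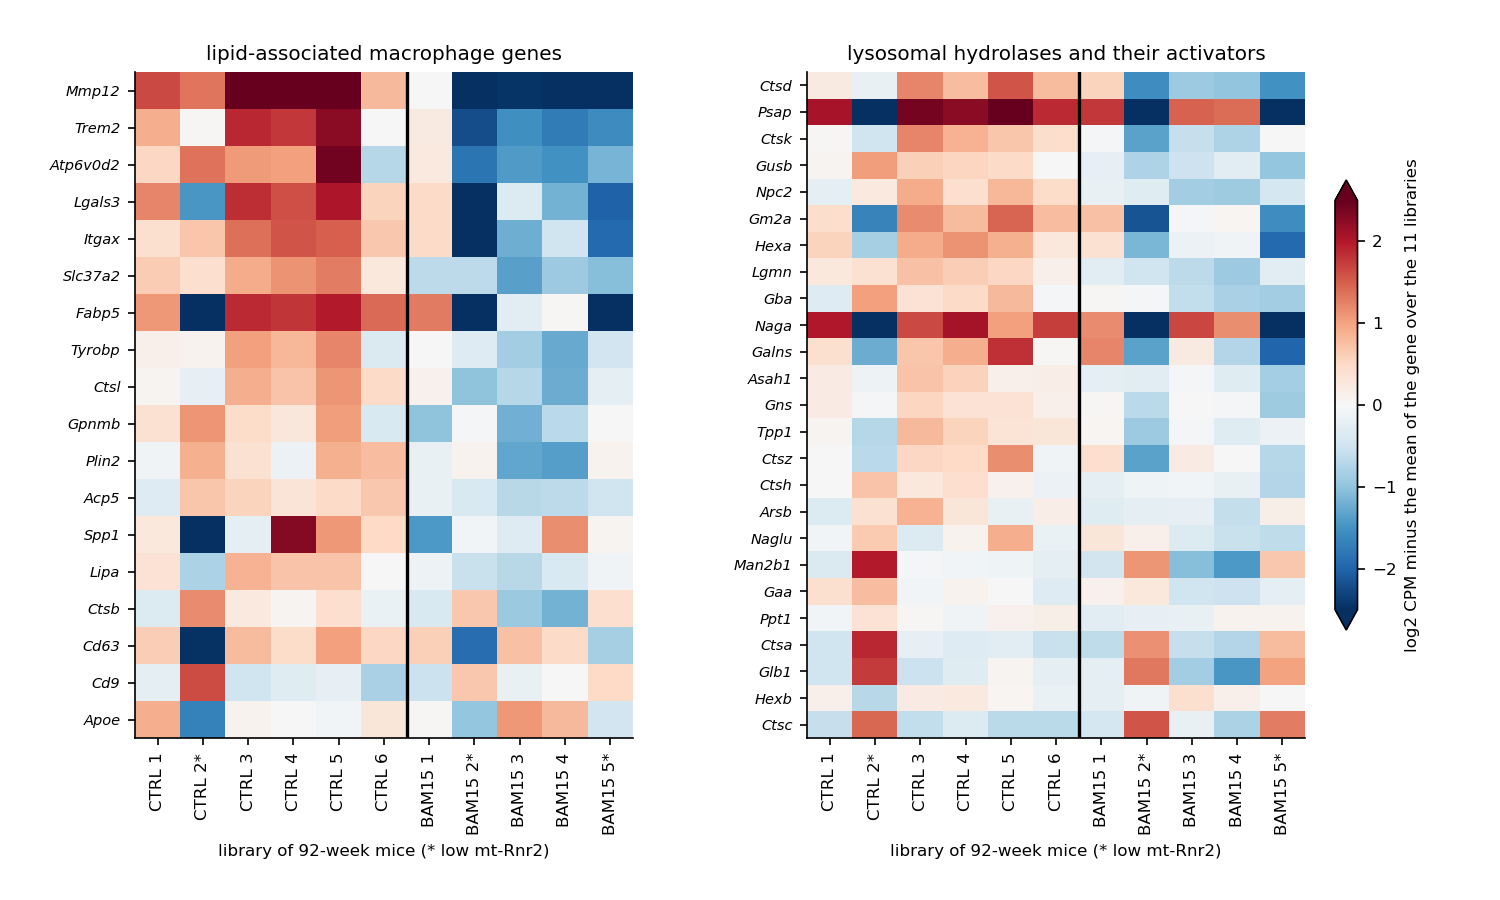
Heat maps of 18 lipid-associated macrophage genes (left) and 25 lysosomal hydrolase genes (right) in the 11 libraries of 92-week mice, coloured by log2 CPM minus the mean of the gene over the 11 libraries, with libraries of low mt-Rnr2 starred. Most left-hand rows run from red in CTRL to blue in BAM15, Aged BAM15 1 is closest to the controls, and the 3 starred libraries share extreme values in several rows of both panels.

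The following genes were also among the 11 lower genes of smallest p. Clec12a, an inhibitory lectin receptor of myeloid cells, lay at 5.78 to 9.52 CPM in Aged BAM15 and at 11.3 to 33.0 CPM (median 18.1) in Aged CTRL, without overlap. In the fit, the log2 change was -1.49 ± 0.34 (edgeR adjusted p = 0.215). Slamf9, a surface receptor of myeloid cells, had -1.40 ± 0.32, the hyaluronan receptor gene Cd44 -1.18 ± 0.28 and the galectin-3 binding protein gene Lgals3bp -1.53 ± 0.35. Tagln2, an actin-binding protein gene, had -0.91 ± 0.22 without overlap, and Tsg101, a subunit of the complex that sorts cargo into endosomes, -0.88 ± 0.20.

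Chemokine and interferon genes gave fewer members past the unadjusted threshold. Of 22 chemokine and receptor genes, 4 lay lower and 1 higher. Among the lower ones were Ccl6 (log2 change -1.14 ± 0.39), the monocyte attractant Ccl2 (-1.66 ± 0.67) and Ccl9 (-1.04 ± 0.43), and the higher was the T cell attractant Ccl5 (2.06 ± 0.84). Of 24 interferon-induced genes, 5 lay lower and 0 higher, among them Ifi44 (-1.50 ± 0.42) and Oas2 (-1.91 ± 0.70). Ifi44 ran from 4.67 to 29.7 CPM in the controls and only from 5.30 to 6.33 CPM in Aged BAM15, so the groups overlapped at the low end.

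Genes of the lysosome lay lower beyond the macrophage lists. Of 25 genes of lysosomal hydrolases and their activators, 13 lay lower at an unadjusted p under 0.05 and 0 higher, and 22 of the 25 log2 changes were negative, where 48.3% of all genes were. The median was -0.54, and -0.53 in the reduced fit. DESeq2 called 4 and limma-voom 10, each lower, where they called 0.429% and 3.44% of all genes lower. Many cell types express these genes, adipocytes among them.

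Lgmn, the gene of the asparagine-cutting protease legumain, was the most evenly shifted. It lay at 40.5, 35.2, 31.4, 26.4 and 40.5 CPM in Aged BAM15 and at 54.3 to 82.1 CPM (median 67.4) in Aged CTRL. All 5 BAM15 libraries lay below all controls. This was a log2 change of -0.96 ± 0.20 (edgeR adjusted p = 0.181), and -1.06 in the reduced fit. Gusb, the beta-glucuronidase gene, also did not overlap, at 27.2 to 46.3 CPM in Aged BAM15 against 53.1 to 110 CPM (median 76.2), a log2 change of -1.02 ± 0.25. Ctsd, an aspartic protease gene named after its values were seen, had -1.50 ± 0.37, from a mean of 1339 CPM to 474 CPM.

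Of 19 tested genes of the lysosomal membrane and its proton pump, 6 lay lower and 0 higher at an unadjusted p under 0.05. All genes gave 4.59% lower and 4.5% higher at that threshold. Of the 19 log2 changes, 14 were negative, with a median of -0.21 (-0.41 in the reduced fit). The pump subunit Atp6v0a1 lay at 187, 49.9, 108, 75.2 and 58.0 CPM in Aged BAM15 and at 110 to 265 CPM (median 212) in Aged CTRL. Aged BAM15 1 again lay inside the control range. EdgeR gave a log2 change of -1.06 ± 0.31, and of -0.66 ± 0.22 for the subunit Atp6v1e1.

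Promoter sequences are shown for 5 of these genes, to set macrophage and lysosomal members side by side with the letters bound by factors known for each cell program. The RefSeq table, build GRCm38.p6, held a promoter for 11427 of the genes tested, 14560 promoters in all, and the 250 bases before each start were searched on both strands. AP-1 binds TGANTCA, PU.1 (the macrophage and myeloid factor) GAGGAAGT, and TFEB and MITF, which drive lysosomal genes, CACGTGAC. The lines give 60 bases, 5' to 3' on the strand of the gene, with the match in capitals: a PU.1 match on the opposite strand for Mmp12 (chr9:7344283-7344342, plus strand), AP-1 matches for Slc37a2 (chr9:37255812-37255871, minus), Itgax (chr7:128129468-128129527, plus) and Trem2 (chr17:48346341-48346400, plus), and a TFEB and MITF match on the opposite strand for Lgmn (chr12:102439110-102439169, minus).
Mmp12: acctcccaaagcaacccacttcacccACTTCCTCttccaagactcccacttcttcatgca
Slc37a2: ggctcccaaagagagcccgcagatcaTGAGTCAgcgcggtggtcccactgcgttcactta
Itgax: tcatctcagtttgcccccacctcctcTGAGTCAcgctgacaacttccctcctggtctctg
Trem2: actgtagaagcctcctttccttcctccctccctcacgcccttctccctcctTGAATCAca
Lgmn: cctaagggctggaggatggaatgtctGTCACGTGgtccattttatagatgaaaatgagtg
The matches start 88, 107, 56, 9 and 51 bases before the RefSeq start used for Mmp12, Slc37a2, Itgax, Trem2 and Lgmn. For Lgmn that start and the window lie inside the annotated gene (chr12:102394084-102439813, minus), not before its outermost 5' end.

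Over all promoters, 4.86% held the AP-1 letters, 2.52% those of PU.1 and 3.17% those of TFEB and MITF. Another motif searched, TTGCNNAA of the C/EBP factors of myeloid cells and adipocytes, was in 7.98%. Of 20 promoters of lipid-associated macrophage genes, 4 held the AP-1 letters (20%), 2 those of PU.1 (10%), 0 those of TFEB and MITF and 3 those of C/EBP (15%). Of 21 promoters of lysosomal hydrolase genes, 5 held the TFEB and MITF letters (23.8%), 4 those of C/EBP (19%), 2 those of AP-1 (9.52%) and 1 those of PU.1 (4.76%). Of 16 promoters of the lysosomal membrane list, 4 held the TFEB and MITF letters (25%), 1 those of AP-1 and 1 those of C/EBP (6.25% each), and 0 those of PU.1. The 12 promoters of the lower genes of smallest p held AP-1 letters in 3 (25%), C/EBP in 3 (25%), PU.1 in 2 (16.7%) and TFEB and MITF in 1 (8.33%). In the 9 promoters of the higher genes AP-1 was in 1 (11.1%) and the other motifs in 0. These are counts of letters in a window and say nothing of binding in this tissue.

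Extracellular matrix genes lay lower as well. All 17 collagen genes had a negative log2 change, from -1.21 to -0.35 with a median of -0.64. At an unadjusted p under 0.05 lay 8 lower and 0 higher, while DESeq2 called 0 and limma-voom 10, each lower. Over all genes limma-voom called 3.44% lower. Col3a1, a fibrillar collagen, lay at 757, 357, 341, 251 and 505 CPM in Aged BAM15 and at 451 to 1450 CPM (median 875) in Aged CTRL. The groups overlapped through Aged BAM15 1 and 5. The log2 change was -1.04 ± 0.35 (edgeR adjusted p = 0.364), and that of Col6a1, a chain of the pericellular collagen VI of fat, -0.93 ± 0.31. In the reduced fit the median of the list was -0.69.

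Of 27 genes for collagen processing and other matrix proteins, 8 lay lower and 0 higher at an unadjusted p under 0.05. All genes gave 4.59% lower and 4.5% higher at that threshold. Of the 27 log2 changes, 22 were negative, with a median of -0.46. DESeq2 called 0 and limma-voom 7, each lower, where limma-voom called 3.44% of all genes lower. Tenascin C (Tnc), a matrix protein of wounds, had a log2 change of -1.27 ± 0.37, from a mean of 9.72 CPM to 4.02 CPM. Plod1, which hydroxylates collagen lysines, had -0.83 ± 0.25.

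Of 17 matrix proteases and inhibitors, 4 lay lower and 1 higher at an unadjusted p under 0.05. All genes gave 4.59% lower and 4.5% higher at that threshold. Of the 17 log2 changes, 12 were negative. Adam8, a cell-surface metalloprotease of leukocytes, lay at 11, 6.40, 7.68, 7.29 and 14.9 CPM in Aged BAM15 and at 11.7 to 86.5 CPM (median 43.3) in Aged CTRL. Only Aged BAM15 5 reached the lowest control. In the fit, the log2 change was -2.21 ± 0.44 (edgeR adjusted p = 0.134). Timp4, an inhibitor of matrix proteases that adipocytes express, lay higher, at 244, 899, 1007, 603 and 1536 CPM against 207 to 502 CPM (median 310). This was a log2 change of 1.39 ± 0.36, and 0.95 in the reduced fit.

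Growth and stress genes included several low members. Hbegf, a growth factor cut from the cell surface, lay at 2.55 to 11 CPM in Aged BAM15 and at 13.7 to 54.8 CPM (median 20.2) in Aged CTRL, without overlap. EdgeR gave a log2 change of -2.01 ± 0.44 (edgeR adjusted p = 0.206). Of 14 immediate early genes tested, 13 had a negative log2 change. At an unadjusted p under 0.05, 4 lay lower and 0 higher: Hbegf, Atf3 (-1.71 ± 0.47), Fos (-2.01 ± 0.75) and Dusp1 (-0.59 ± 0.28). Atf3 and Fos encode stress-induced transcription factors.

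The cell cycle inhibitor Cdkn1a (p21) lay at 55.6, 7.09, 60.5, 51.4 and 44.6 CPM in Aged BAM15 and at 24.8 to 380 CPM (median 121) in Aged CTRL. Both groups had their lowest value in a library with low mt-Rnr2. The log2 change was -1.90 ± 0.53 (edgeR adjusted p = 0.257), and -1.78 in the reduced fit. In the list of senescence and p53 target genes, 3 of 18 lay lower at an unadjusted p under 0.05 and 0 higher. Cdkn1a and Plk2 (-1.03 ± 0.46) were among the 3, and 11 of the 18 log2 changes were negative. Gdf15, a stress hormone that curbs appetite, had -1.25 ± 0.56 at 7.44 CPM in Aged CTRL and 3.12 CPM in Aged BAM15.

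All 22 cell cycle genes had a negative log2 change, where 48.3% of all genes did. The median was -0.81 (-0.48 in the reduced fit). At an unadjusted p under 0.05, 5 lay lower, against 4.59% of all genes. DESeq2 called 2 and limma-voom 1, each lower, where they called 0.429% and 3.44% of all genes lower. Levels were low: the 22 genes summed to 91.2 to 167 CPM in Aged CTRL and 68.9 to 101 CPM in Aged BAM15. The kinase of mitosis Cdk1 lay at 6.02 to 11.4 CPM in Aged BAM15 and at 6.13 to 24.1 CPM (median 18.5) in Aged CTRL, where Aged CTRL 1 alone lay within the BAM15 range. In the fit, the log2 change was -1.13 ± 0.30, and that of Cenpf, a kinetochore protein gene, -1.09 ± 0.44.

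Among the higher genes, Angpt1 had the smallest p. It encodes angiopoietin-1, the ligand of the endothelial receptor Tie2 that steadies vessels. Aged BAM15 held 18.9, 18.9, 25.2, 30.5 and 27.1 CPM and Aged CTRL 6.24 to 15.3 CPM (median 11.2). The groups did not overlap. This was a log2 change of 1.13 ± 0.22 (edgeR adjusted p = 0.105), and 1.06 in the reduced fit. In the list of 16 endothelial and vascular growth genes it was the 1 higher member at an unadjusted p under 0.05. The tight junction gene Cldn5 (-1.37 ± 0.43) and the cadherin gene Cdh5 (-0.77 ± 0.37) lay lower.

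Thbd, thrombomodulin, lay at 57.4, 513, 167, 79.9 and 231 CPM in Aged BAM15 and at 26.7 to 76.6 CPM (median 47.2) in Aged CTRL. The libraries with low mt-Rnr2 were among the highest in both groups. EdgeR gave a log2 change of 2.12 ± 0.48 (edgeR adjusted p = 0.215), and 1.27 in the reduced fit. Gpx3, the secreted glutathione peroxidase, was arranged in the same way in Aged BAM15, at 325, 3046, 1244, 884 and 2545 CPM, against 132 to 785 CPM (median 215). The log2 change of Gpx3 was 2.31 ± 0.55, and 1.41 in the reduced fit, so both values move with Aged BAM15 2 and 5. Sod3, the secreted superoxide dismutase, lay lower without overlap, at 201 to 377 CPM against 464 to 860 CPM (median 633), a log2 change of -1.25 ± 0.35.

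Adipocyte genes lay on both sides. Cfd, which encodes adipsin, lay at 4868, 9565, 11698, 10295 and 9883 CPM in Aged BAM15 and at 1763 to 5944 CPM (median 2837) in Aged CTRL. Aged BAM15 1 overlapped the highest control. The log2 change was 1.51 ± 0.36 (edgeR adjusted p = 0.22), and 1.40 in the reduced fit. Of 16 genes of adipocyte identity, 2 lay higher at an unadjusted p under 0.05, Cfd and the insulin-responsive glucose transporter Slc2a4 (0.91 ± 0.35), and 2 lower, the lipid droplet gene Cidec (-0.68 ± 0.32) and the leptin gene Lep. The median was 0.30 and became -0.22 in the reduced fit.

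Lep lay at 2034, 112, 1846, 1323 and 416 CPM in Aged BAM15 and at 188 to 4881 CPM (median 3272) in Aged CTRL. The 3 lowest of the 11 were the libraries with low mt-Rnr2. In the fit, the log2 change was -1.33 ± 0.64 (edgeR adjusted p = 0.542), and -0.98 in the reduced fit. The adiponectin gene Adipoq had -0.38 ± 0.33, with a 95% interval of -1.04 to 0.28.

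Of 20 genes for the synthesis of fatty acids and triglycerides, 5 lay higher and 3 lower at an unadjusted p under 0.05. The median of 0.05 has no stable sign, at -0.34 in the reduced fit and -0.32 with limma-voom, which called 3 lower and 2 higher. DESeq2 called 0 lower and 1 higher. Over all genes DESeq2 called 0.429% lower and 0.233% higher, and limma-voom 3.44% and 2.62%. At 16 weeks 8 of the 20 lay lower at an unadjusted p under 0.05 and 0 higher, and 15 had a negative log2 change. Thrsp, the carbohydrate-induced lipogenic factor Spot 14, lay at 232, 1321, 305, 383 and 518 CPM in Aged BAM15 and at 83.8 to 305 CPM (median 188) in Aged CTRL. This was a log2 change of 1.504 ± 0.37 (edgeR adjusted p = 0.226), and 0.83 in the reduced fit. Mlxipl, the glucose-sensing factor ChREBP, had 1.21 ± 0.34, Mogat1 0.78 ± 0.31, Acaca 0.65 ± 0.27 and the desaturase Scd1 0.82 ± 0.37. The lower members were Scd2 (-1.19 ± 0.40), Acss2 (-0.95 ± 0.32) and Agpat2 (-1.09 ± 0.44). Fatty acid synthase (Fasn) had -0.12 ± 0.36, with a 95% interval of -0.82 to 0.57.

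Some genes of the circadian clock lay higher. Hlf, a factor under clock control, lay at 31.7, 41.7, 43.6, 42.0 and 54.9 CPM in Aged BAM15 and at 13.4 to 27.6 CPM (median 21.0) in Aged CTRL. The groups did not overlap, and the log2 change was 1.07 ± 0.24 (edgeR adjusted p = 0.215). Per3 had 1.18 ± 0.30, Tef, of the same family as Hlf, 1.30 ± 0.45, and the nuclear receptor gene Nr1d2 1.10 ± 0.50. They were the 4 of 16 clock genes at an unadjusted p under 0.05, and none was lower at that threshold. Of the 16 log2 changes, 9 were negative. The list's median was -0.04, against 0.13 in the reduced fit and 0.31 with limma-voom, so its sign was not stable. The hour of necropsy is not in the labels, so its part was not tested.

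The other higher genes of smallest p have varied roles. Prodh, the first enzyme of proline breakdown in mitochondria, lay at 14.1 to 57.1 CPM in Aged BAM15 and at 4.06 to 18.1 CPM in Aged CTRL, a log2 change of 1.47 ± 0.36. Adam33, a metalloprotease gene, had 1.34 ± 0.30, the cytoskeletal protein gene Zfp185 1.27 ± 0.27 and Simc1 1.23 ± 0.30. The inositol phosphatase gene Inpp1 (1.06 ± 0.25) and the kinase gene Riok1 (0.67 ± 0.17), which acts in ribosome assembly, did not overlap between the groups. Riok1 had the tightest values of the 12, at 33.6 to 39.4 CPM in Aged BAM15 and 18.4 to 27.1 CPM in Aged CTRL.

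Genes of fuel oxidation and heat production were read because BAM15 acts on mitochondria. Of 19 tested genes of fatty acid oxidation, 4 lay lower and 0 higher at an unadjusted p under 0.05. All genes gave 4.59% lower and 4.5% higher at that threshold. Among the 4 were the carnitine carrier Slc25a20 (-0.71 ± 0.25) and the electron transfer flavoprotein gene Etfb (-0.56 ± 0.23). Of the 19 log2 changes, 15 were negative. The median was -0.29, and -0.52 in the reduced fit and -0.60 with limma-voom. Limma-voom called 10 of the 19, each lower, against 3.44% lower over all genes, and DESeq2 called 0. Of 32 nuclear genes of the respiratory chain, 0 passed an unadjusted edgeR p under 0.05 in either direction, with a median of 0.09 that turned to -0.25 in the reduced fit. Limma-voom called 2 of them, lower, against the same 3.44% over all genes, and DESeq2 called 0. Of 14 tested brown and beige fat genes, 3 lay lower and 1 higher at an unadjusted p under 0.05. The lower were Kcnk3 (-0.87 ± 0.35), Otop1 (-1.81 ± 0.74) and Gk (-0.87 ± 0.38), and the higher was the coactivator Ppargc1a (0.94 ± 0.44). Otop1 was highest in Aged CTRL 2, at 79.3 CPM against 1.75 to 16.4 CPM in the other controls. With single libraries left out, the log2 change of Otop1 ran from -2.36 to -0.47. The heat-producing uncoupling protein Ucp1 was at 0 in 4 of 5 Aged BAM15 libraries and at 0.583 CPM in the other, against 0 to 2.04 CPM in Aged CTRL.

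**Figure D4:**
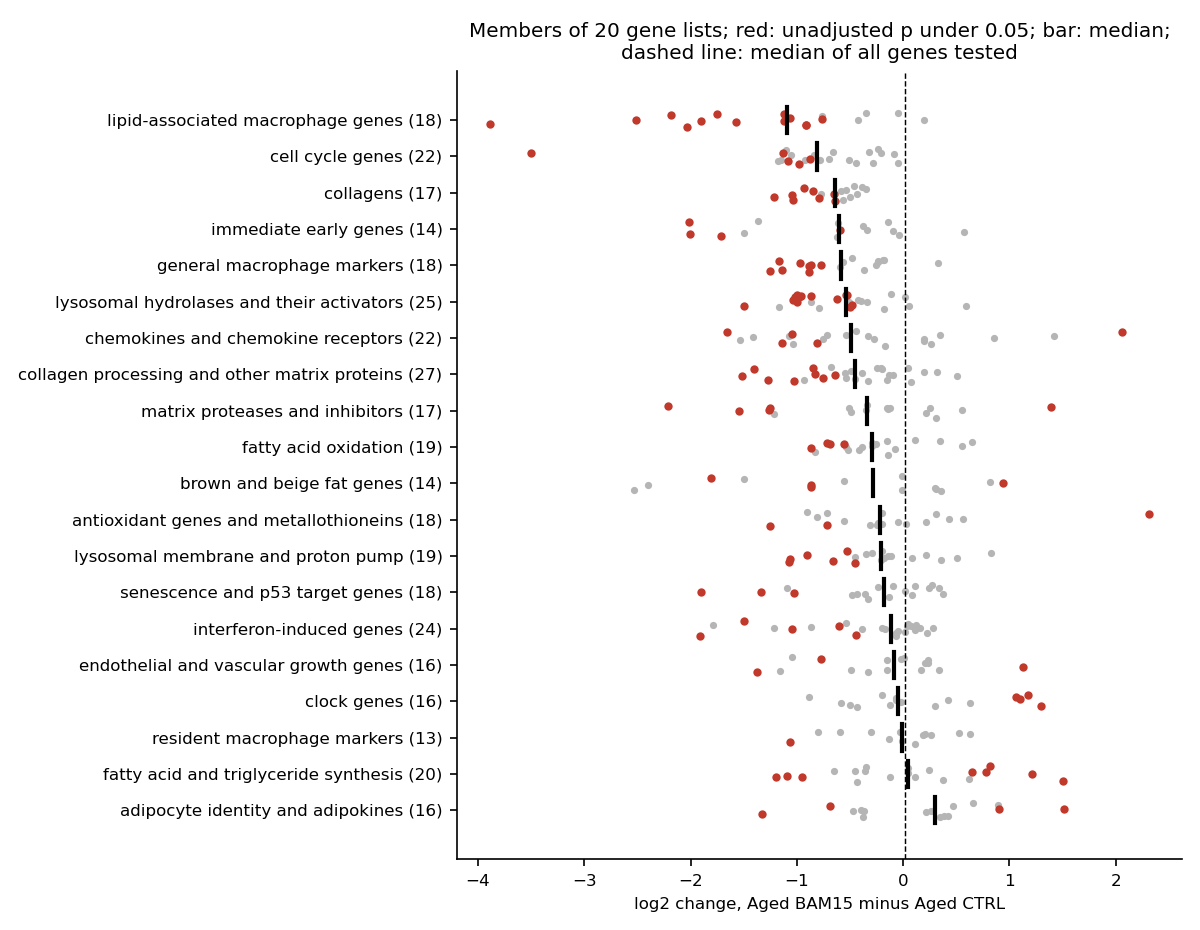
Log2 change (Aged BAM15 minus Aged CTRL) of each tested member of 20 gene lists, with the number tested in brackets, members at an unadjusted edgeR p under 0.05 in red, list medians as bars and the median of all genes as a dashed line. Lipid-associated macrophage genes have the lowest median of the 20 (-1.09) and adipocyte genes the highest (0.30).

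The same contrast in 16-week mice shares no library with that in old mice. Of the 11 lower genes of smallest p, 10 had a log2 change below 0 at 16 weeks with no tolerance applied, Slc37a2 among them at 0.00. Of all genes 47.3% lay below 0 there. Of the 11, 3 had an unadjusted p under 0.05: Mmp12, Lgmn and Tsg101. Of the 12 higher genes, 10 were positive at 16 weeks, where 52.7% of all genes were, and 4 had an unadjusted p under 0.05: Angpt1, Adam33, Cfd and Inpp1. With edgeR, 0 genes were called at 16 weeks either, with 6.88% lower and 6.18% higher at an unadjusted p under 0.05.

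Lgmn was close at both ages, with log2 changes of -0.96 ± 0.20 at 92 weeks and -0.71 ± 0.18 at 16 weeks. Mmp12 had -1.28 ± 0.58 at 16 weeks, where Young CTRL averaged 22.3 ± 8.03 CPM and Young BAM15 9.14 ± 9.85 CPM (SD over 7 and 6 mice). Slc37a2 had 0.00 ± 0.30 at 16 weeks, where controls held 5.59 ± 1.61 CPM (SD, n = 7), near the level of Aged BAM15. At 16 weeks, 8 of 18 lipid-associated macrophage genes lay lower at an unadjusted p under 0.05 and 0 higher, with a median of -0.74. For general macrophage markers the counts at that threshold were 0 of 18 lower and 2 higher, with a median of -0.18. For collagens they were 10 of 17 lower and 0 higher, with a median of -0.62. Negative log2 changes numbered 16 of 18, 12 of 18 and 17 of 17 in these lists, in that order.

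Whether the effect of BAM15 differed between ages was tested as the difference between both contrasts. With edgeR, 0 of 15939 genes were called, the smallest adjusted p was 0.866, and 809 genes (5.08%) had an unadjusted p under 0.05. DESeq2 called 2, Zfp185 and Irx1, and limma-voom 0. The 4 genes of smallest p with a lower effect in old mice were Clec12a (difference -1.99 ± 0.45), Slc37a2 (-1.75 ± 0.44), the macrophage pore-forming protein gene Mpeg1 (-1.64 ± 0.43) and the RNA helicase gene Dhx58 (-1.21 ± 0.35). With a higher effect in old mice they were Zfp185 (1.79 ± 0.37), the ornithine carrier gene Slc25a15 (1.44 ± 0.36), Hlf (1.20 ± 0.32) and the receptor gene Mrgprg (2.96 ± 0.80). Clec12a averaged 9.12 ± 4.70 CPM over the 7 Young CTRL mice and 12.9 ± 2.69 CPM over the 6 Young BAM15 mice (SD), the opposite order to that at 92 weeks. Zfp185 was at 26.5 ± 5.29 CPM and 18.4 ± 3.76 CPM (SD) in the same groups, also the opposite order.

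**Figure D5:**
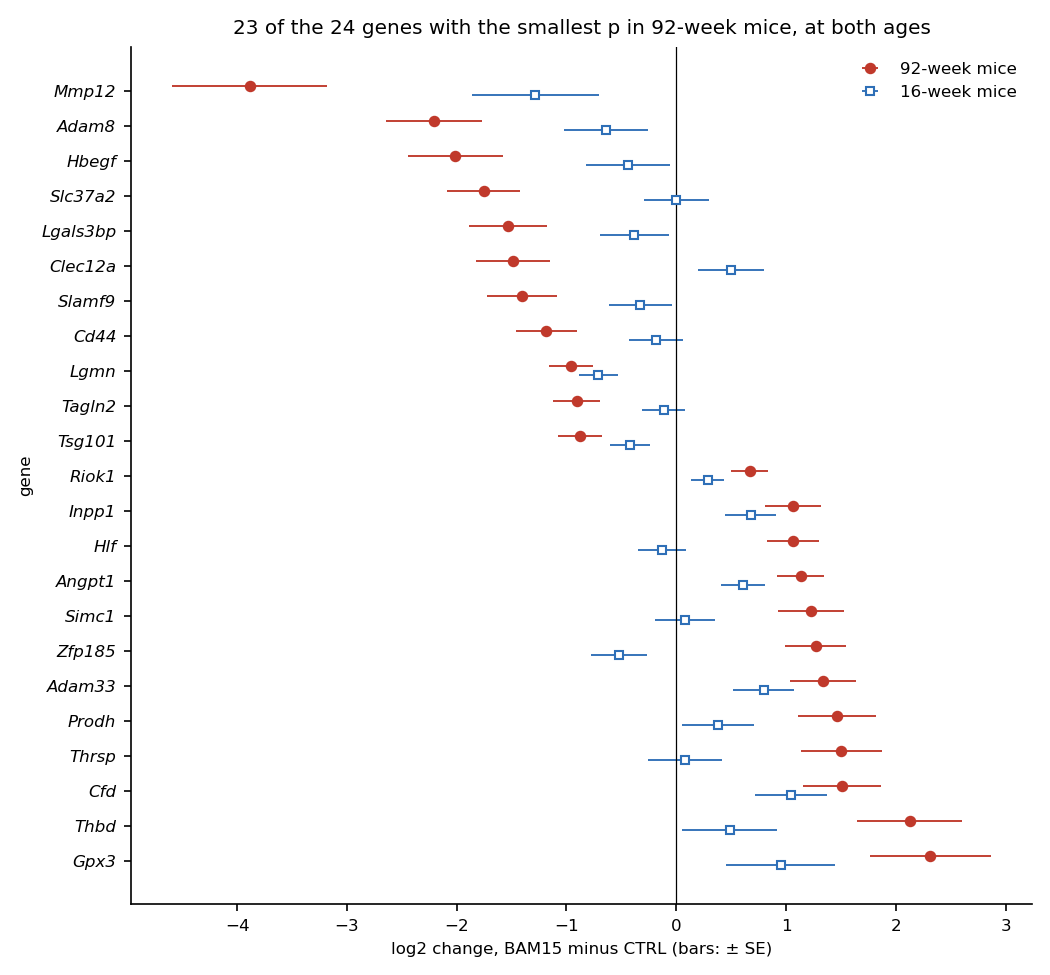
Log2 change of BAM15 minus CTRL with its SE for 23 genes of smallest p in 92-week mice (red circles) and the same genes in 16-week mice (blue open squares). The red values chose the genes; the blue values lie on the same side of 0 for 10 of the 11 lower (Slc37a2 at 0.00) and 10 of the 12 higher genes, and Clec12a, Zfp185 and Hlf lie on the other side.

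Markers of other cells that a depot can hold varied from library to library. Summed skeletal muscle markers ran from 25.3 to 25115 CPM in Aged CTRL and from 195 to 11553 CPM in Aged BAM15, and none of the 12 was at 0 throughout a group. Of those 12, 0 had an unadjusted edgeR p under 0.05, and DESeq2 and limma-voom called 0. B cell markers summed to 6.32 to 264 CPM and 1.84 to 364 CPM, and T and NK cell markers to 30.0 to 169 CPM and 14.1 to 260 CPM, in Aged CTRL and Aged BAM15. All 10 B cell markers had a positive log2 change in the edgeR fit, with a median of 1.33 and of 3.30 in the reduced fit, and 0 had an unadjusted p under 0.05. Of 14 T and NK cell markers 12 were positive, with a median of 1.46 and of 2.94 in the reduced fit, and 1 had an unadjusted p under 0.05. DESeq2 and limma-voom called 0 of both lists. Skin keratin and epithelial markers were near 0 in both groups (7.44 to 11.2 and 6.75 to 15 CPM for 7 genes). The part of these cells in the results above was not tested.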

How the data were processed

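RNA was measured in 24 libraries, 1 per mouse. The authors deposited raw counts per Ensembl gene and, per the file headers, a second table of normalised signal, in which each count is divided by 1 size factor per library; dividing by that factor was checked to 6.52e-09 counts. The submitters' processing notes name R 3.4.3, DESeq2 1.18.1 and GRCm38; the aligner, the counter and gene models were not given in the sources used here. Only the counts were used. The table held 17541 genes; symbols came from it for 14606 and from GENCODE for 2888.

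Counts were TMM-normalised, filtered with filterByExpr (15939 genes) and fitted over all 24 libraries with a group term in edgeR 4.0.16 (R 4.3.3; robust quasi-likelihood F-test; 20 residual degrees of freedom, biological coefficient of variation 0.621). Adjusted p values are Benjamini-Hochberg over all genes, with a threshold of 0.05; SE is the log2 change over the square root of F. CPM uses the TMM-scaled total of the tested genes; log2 CPM used a prior count of 2. A simulation for this comparison changed 200 of 15939 genes 4-fold, at a biological coefficient of variation of 0.387, below the fitted one. Of these 200, 192 (96%) were recovered, with 13 false calls. The simulation changed only genes above a set mean count, gave every gene the same spread and held no libraries of low mt-Rnr2. Its share recovered is therefore not that of the real comparison. Alternatives (DESeq2 1.42.0, limma 3.58.1, other factors and filters, the 2 aged groups alone, a replicate block, libraries left out) are in the closing section. DESeq2 and limma-voom without the 4 libraries with low mt-Rnr2 were added after seeing the data.

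The members and the 40 gene lists were chosen with earlier results of these data known, and the 20 lists described, and the motif counts for lists, after seeing list results. Named genes are the 12 per direction of smallest p with a mean of at least 5 CPM in the aged libraries (no predicted, immunoglobulin or T cell receptor genes), 2 members of smallest p per described list with at least 1 CPM, every lipid-associated macrophage gene, 6 fixed genes (Lep, Adipoq, Fasn, Ucp1, Cdkn1a and Gdf15) and 4 per direction of smallest p for the difference between ages. Members past the unadjusted threshold in lists with 5 or fewer such members are named too, once their values had been seen. The results of some genes reached by these rules are not reported here.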

Additional observations from a re-analysis of the deposited data

Results flagged for a closer look

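In 17 of 156 groups of 5 or 6 values tested, 1 library lay far from the others of its group in log2 CPM; chance flags about 1 in 20, or 5%. Aged CTRL 2, the control with low mt-Rnr2, gave 5 of them: it was high for Cd9 (7.71) and low for Cd63 (6.01), Fabp5 (3.13), Etfb (7.23) and Lep (7.56). Aged CTRL 1 gave 3, low for Acp5 (7.32), Cdk1 (2.65) and Fasn (6.33). Aged BAM15 1 gave 3, on the side of the controls each time: low for Cfd (12.2), high for Trem2 (3.45) and high for Atp6v1e1 (7.96). Aged BAM15 2 was low for Cdkn1a (2.86) and high for Mrgprg (3.91). Aged CTRL 6 was low for Atf3 (2.59), Aged CTRL 5 low for Cldn5 (2.74), and Aged BAM15 5 low for Ifi44 (2.45), in a group whose values were all close. Aged BAM15 4 was the 1 BAM15 library with counts of Ucp1 (-0.46).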

How the results depend on the processing

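The count of genes called by edgeR, 0, was the same with DESeq2 size factors, upper-quartile factors, both other filters, the 2 aged groups alone, and in the fit without the 4 libraries of low mt-Rnr2. It was 105 with the DESeq2 Wald test and 966 with limma-voom, 130 and 1059 with the same tools without those 4 libraries, and 0 to 67 when each aged library was left out. Genes at an unadjusted edgeR p under 0.05 were 1450, 911 in the 2 aged groups alone and 3055 without Aged CTRL 2. For the difference between ages, edgeR called 0 with every library left out in turn, DESeq2 2, and DESeq2 without the 4 libraries 6, which included Krt15 and Krtap19-3, genes of skin. Genes whose groups do not overlap numbered 113, 115 with DESeq2 size factors, 127 to 505 when each aged library was left out, and 1214 in the 8 aged libraries of usual mt-Rnr2, where fewer libraries make separation easier. Of 78 named genes, 75 kept their direction in all alternatives. Cd9 (-0.05) turned to 0.27 with limma-voom, 0.039 with the replicate block and 0.18 without the 4 libraries. With single libraries left out, Cd9 ran from -0.22 to 0.56, Apoe from -0.10 to 0.43 and Fasn from -0.47 to 0.059. The cause was not tested.

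The titles do not say whether replicate numbers pair mice. The 5 same-number pairs of Aged CTRL and Aged BAM15 had correlations of deviations of -0.13 to 0.63 (median 0.22). The median was -0.06 in 25 other pairs, and 1 of 5 BAM15 libraries was best matched by its own number. With only 5 such pairs, these values cannot decide whether the numbers pair mice. With the replicate number as a block, edgeR called 0 genes and 1171 had an unadjusted p under 0.05. Libraries of 1 group differed far beyond counting error (chi-square per gene 21.4 to 627 in 25 pairs), so none was a copy.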
